A study of Rattus norvegicus with 3 samples.

Results

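Amino acid transporter genes were taken as all genes with a probe that is not a control and whose rat symbol, found through the RefSeq accession of the array design, starts with Slc1a, Slc3a, Slc6a, Slc7a, Slc36a, Slc38a or Slc43a. This gave 55 genes, of 13351 genes named on the array, of which 13301 kept a probe after outlier spots were left out and make up all genes below. A total of 14 further genes of these families in the gene table, among them the cationic amino acid transporter Slc7a1 and the glutamate transporter Slc1a1, had no probe named in this way and were not analysed here. Slc7a6os entered by its name, which it has from its place on the strand opposite Slc7a6, and it does not encode a transporter of these families. The study set the rat osteosarcoma line COS1NR and the rat malignant fibrous histiocytoma (MFH) line MFH1NR against cultured rat mesenchymal stem cells (MSCs), all from F344 rats. Both lines were started from tumors induced with 4-HAQO, are described as carrying a p53 mutation and are 1 line each, while the MSCs were grown from femur bone marrow by their attachment to plastic and were not sorted. The MSC medium held more fetal bovine serum than that of the lines. Cy3-labeled cRNA of each cell type was hybridized to 1 whole rat genome array, so there were no replicates and no difference could be tested.

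Amino acids cross membranes through carriers that couple their movement to sodium, protons or the exchange of another amino acid. The Slc1 family carries glutamate and small neutral amino acids, the Slc38 family carries glutamine and other neutral amino acids with sodium, and the Slc6 family carries neurotransmitters, taurine, creatine and amino acids with sodium and chloride. Most Slc7 proteins are the light chains of exchangers that reach the surface bound to a heavy chain, Slc3a1 or Slc3a2 (CD98), while Slc7a1 to Slc7a3 carry cationic amino acids without one. Growing cells take up glutamine, leucine and cystine by these routes, and the transcription factor ATF4 is known to raise several of the genes when amino acids are scarce.

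Intensities are those deposited by the authors, in which background was subtracted and each array was detrended, and every ratio was taken after division by the 75th percentile of the array. This percentile was 589 in MSCs against 774 in COS1NR and 994 in MFH1NR. Between 24551 and 25899 of 43379 spots per array were well above background by the scanner software, and none was saturated. Where the probe of a gene was dim, that is, not well above background, on 1 of the 2 arrays compared, its ratio is a bound and is given as "at least". The MSC array lay on another slide and scan than the arrays of the sarcoma lines, so for every ratio to MSCs the slide and the cell type cannot be told apart. Both of these comparisons use the same MSC array. Probes printed repeatedly on an array had a median SD of 0.073 to 0.0756 in log2 intensity, and the 2 brightest probes of a gene gave log2 ratios whose median difference over 1891 genes was 0.28 for COS1NR to MSCs, 0.31 for MFH1NR to MSCs and 0.15 for MFH1NR to COS1NR. For probes that are dim in 1 cell type, fewer cells with the transcript and less transcript per cell cannot be told apart.

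The markers of the labeled cell types were checked first. All 11 mesenchymal markers were well above background in MSCs, 8 were so in COS1NR and 9 in MFH1NR. Their summed intensity was 1011, 149 and 277 times the 75th percentile, and 8 were at least 2-fold lower in COS1NR and 6 in MFH1NR than in MSCs, with 0 higher. Endoglin (Eng) and Lepr were dim in both lines, and Thy1 was dim in COS1NR. Of 7 osteoblast markers, 5 were well above background in MSCs against 4 in COS1NR and 5 in MFH1NR, and Sp7, a transcription factor of osteoblasts, was dim in MSCs and COS1NR. The summed osteoblast intensity was 75.6, 30.8 and 153 times the 75th percentile, with 4 markers at least 2-fold lower in COS1NR than in MSCs, and 2 higher and 3 lower in MFH1NR. All 15 macrophage markers were well above background in MSCs, with a summed intensity of 178 times the 75th percentile, against 9.71 times in COS1NR, where 8 were above background, and 4.84 times in MFH1NR, where 7 were. Each of the 15 was at least 2-fold lower in each line than in MSCs. Of 4 osteoclast markers with a probe, 3 were above background in MSCs and 2 in each line, with summed intensities of 67.1, 0.211 and 7.33 times the 75th percentile. Acp5, an acid phosphatase of osteoclasts, had 24581, 102 and 36.5, and Ctsk, a bone-resorbing protease, had 14774, 47.0 and 7209, with log2 ratios of MFH1NR to COS1NR of -1.84 and 6.90. Calcr, the calcitonin receptor, was dim on all arrays. The part of macrophages, osteoclasts or the lower mesenchymal markers in the transporter differences was not tested.

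Of the 55 genes, 37 were well above background on at least 1 array, and 22 of these were so on all 3 arrays, 9 on 2 and 6 on 1. The MSC array had 33 genes above background (60.0%), COS1NR had 28 (50.9%) and MFH1NR had 29 (52.7%), against 69.7%, 65.7% and 66.6% of all named genes. The 18 genes that were dim on every array included the heavy chain Slc3a1, the glutamate transporters Slc1a6 and Slc1a7, the neutral amino acid transporters Slc38a3 and Slc38a5, and Slc6a2 and Slc6a5, which encode transporters of noradrenaline and glycine in neurons. Also dim were Slc6a13, Slc6a14, Slc6a18, Slc6a21, Slc7a10, Slc7a13, Slc7a14, Slc7a15, Slc36a2 and Slc36a3.

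**Figure D1:**
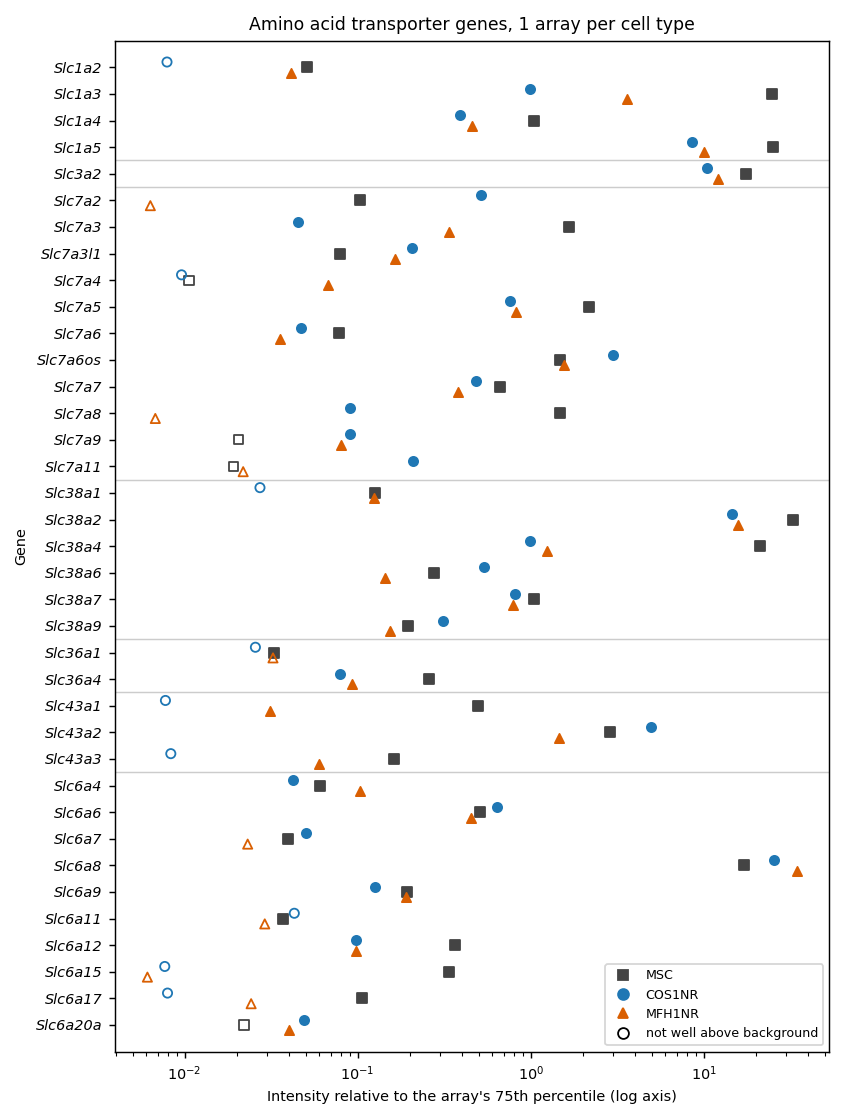
Intensity of the 37 transporter genes well above background on at least 1 array, relative to the 75th percentile of each array (log axis), with 1 point per array, shifted slightly by cell type in height. Open symbols are probes not well above background. Slc1a3, Slc38a4 and Slc7a3 show the MSC point to the right of both sarcoma lines, and the levels of different genes come from different probes and cannot be ranked.

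A larger share of the transporter genes was lower than higher in each sarcoma line relative to MSCs. In COS1NR, 15 of 36 genes with a probe above background on either array were at least 2-fold lower than in MSCs, which is 41.7%, against 20.0% of all 9710 genes. At least 2-fold higher were 5 genes (13.9%, against 20.6% of all genes). The median log2 ratio, over genes with a ratio or bound, was -0.68 for the transporter genes and 0.11 for all genes. In MFH1NR, 16 of 36 genes were at least 2-fold lower than in MSCs (44.4%, against 21.6% of 9823 genes) and 4 were higher (11.1%, against 19.3%), with medians of -0.87 and 0.02. Without scaling between arrays, these splits became 9 higher and 14 lower in COS1NR and 6 higher and 9 lower in MFH1NR. The shares over all genes given above were taken with scaling and do not apply to these counts. No scaling moved the median of all genes to 0.52 and 0.79, and the transporter median relative to it was then -0.81 and -1.02, against -0.79 and -0.88 with the scaling used. Among genes well above background on both arrays, 10 of 25 were lower and 3 higher in COS1NR (40.0% and 12.0%, against 16.0% and 20.9% of all such genes), and 12 of 26 were lower and 2 higher in MFH1NR (46.2% and 7.69%, against 16.8% and 19.2%). All of these are descriptions of single arrays.

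Between the 2 lines, whose arrays shared a slide, the transporter genes were split more evenly. In MFH1NR, 4 of 33 genes were at least 2-fold higher than in COS1NR (12.1%, against 12.4% of 9422 genes) and 6 were lower (18.2%, against 15.1%). The median log2 ratio was 0.06, against -0.09 for all genes. Without scaling, 6 were higher and 5 lower, while the median of all genes moved to 0.27. With genes above background on both arrays, 3 of 24 were higher and 3 lower (12.5% each, against 9.86% and 12.1% of all such genes).

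**Figure D2:**
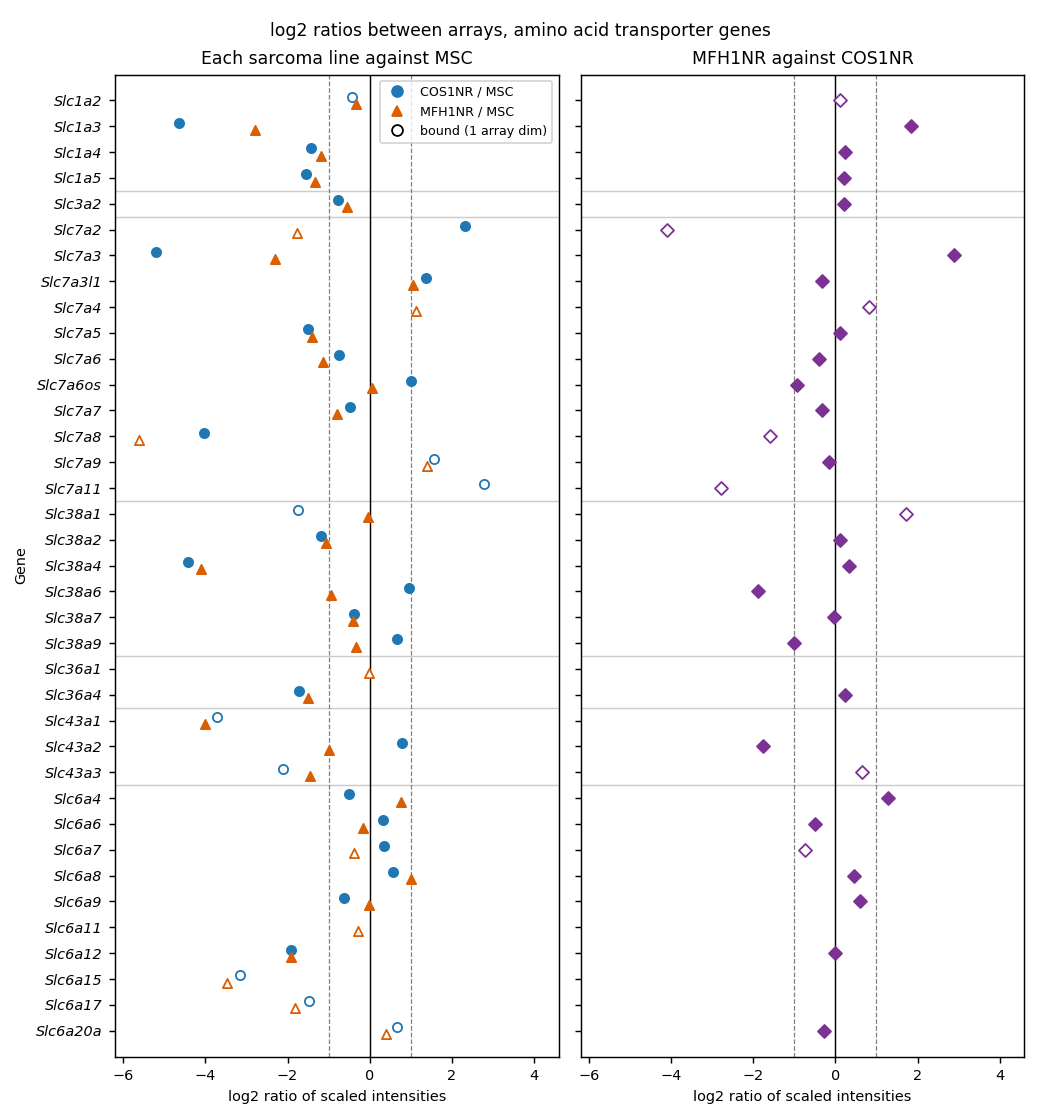
log2 ratios of scaled intensities for the same 37 genes, on the left for COS1NR (circles) and MFH1NR (triangles) against MSC and on the right for MFH1NR against COS1NR. Open symbols are bounds, dashed lines mark 2-fold, and genes without a point in a panel were dim on both arrays or had no bound. On the left, 15 points of COS1NR and 16 of MFH1NR lie at or beyond the lower dashed line, against 5 and 4 at or beyond the upper one.

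The promoters were searched for the amino acid response element, the site through which ATF4 is known to act, as TGATGNAA on either strand in the 250 bases before the RefSeq start of each gene. Of the 55 genes, 42 had a promoter in the RefSeq table of build GRCr8, and 2 of these (4.76%) held the letters, against 297 of 10849 promoters of named genes (2.74%). The promoters of Slc1a4 and Slc38a1 are shown because they are the members that hold it. They are written 5′ to 3′ along the gene, with the match in capitals.
Slc1a4, GRCr8 chr14:98761563-98761812, minus strand: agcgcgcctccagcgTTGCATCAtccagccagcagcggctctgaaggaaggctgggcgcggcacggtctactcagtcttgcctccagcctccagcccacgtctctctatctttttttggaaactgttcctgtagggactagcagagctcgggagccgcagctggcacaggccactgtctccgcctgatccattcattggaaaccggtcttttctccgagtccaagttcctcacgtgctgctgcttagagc
Slc38a1, GRCr8 chr7:129681402-129681651, minus strand: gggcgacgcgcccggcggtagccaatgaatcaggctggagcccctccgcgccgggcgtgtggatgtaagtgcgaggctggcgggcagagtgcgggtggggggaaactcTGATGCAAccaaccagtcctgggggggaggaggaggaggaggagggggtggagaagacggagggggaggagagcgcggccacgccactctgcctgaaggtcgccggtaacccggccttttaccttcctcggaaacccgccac
The match began 235 bases before the start of Slc1a4 and 142 bases before that of Slc38a1. These are matches of letters, and the arrays do not measure binding. The values of both genes follow with their families.

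Among the Slc1 genes, Slc1a3, Slc1a4 and Slc1a5 were each at least 2-fold lower in the lines than in MSCs. Slc1a3, the glutamate transporter GLAST known from astrocytes, gave a signal of 14545 in MSCs against 771 in COS1NR and 3564 in MFH1NR. It was thus 24.8-fold lower in COS1NR and 6.89-fold lower in MFH1NR than in MSCs, and 3.60-fold higher in MFH1NR than in COS1NR. Its second probe gave log2 ratios of -4.51, -2.50 and 2.01 for the same comparisons, against -4.63, -2.78 and 1.85. Slc1a5 (ASCT2), a sodium-dependent glutamine carrier of many growing cells, had 14882 in MSCs against 6662 in COS1NR and 9979.5 in MFH1NR, which is 2.93-fold and 2.52-fold lower. Its relative Slc1a4 (ASCT1), which carries serine and alanine, had 615, 301 and 457 and was 2.68-fold and 2.27-fold lower. The lines were thus close to each other for both, with MFH1NR over COS1NR at 1.17 and 1.18. Without scaling, the log2 ratios of Slc1a5 and Slc1a4 in MFH1NR were -0.58 and -0.43, which is under 2-fold. Slc1a2, the main glutamate transporter of the forebrain, was near background at 30.2 in MSCs and 40.7 in MFH1NR and dim in COS1NR, with a ratio of MFH1NR to MSCs of 0.800.

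The heavy chain Slc3a2 stayed within 2-fold between the arrays, while its light chains differed in direction. Slc3a2 had 10411 in MSCs against 8075 in COS1NR and 11992 in MFH1NR, and its ratios to MSCs were 0.591 and 0.682. Slc7a5 (LAT1), the exchanger for leucine and other large neutral amino acids, had 1280.4, 591 and 823, and was 2.85-fold and 2.62-fold lower than in MSCs, the latter under 2-fold without scaling, at a log2 value of -0.64. Slc7a8 (LAT2), which carries a similar range, had 867 in MSCs and 70.0 in COS1NR, 16.3-fold lower, and a dim 6.73 in MFH1NR, at least 48.6-fold lower. Its bound between the lines was 2.99-fold, with COS1NR above MFH1NR, and after normexp the log2 ratio of MFH1NR to COS1NR was -0.89. Among the light chains of Slc3a2, Slc7a8 thus showed the lowest ratio to MSCs in each line.

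Slc7a11 (xCT), which imports cystine for glutathione synthesis in exchange for glutamate, showed the opposite pattern in COS1NR. It was dim in MSCs, at 11.3, and in MFH1NR, at 21.7, and had 162 in COS1NR. Its level in COS1NR was at least 6.86-fold above that of MSCs and at least 6.92-fold above that of MFH1NR, and no ratio can be given between the latter. The y+L exchangers, which pass cationic against neutral amino acids, differed less. Slc7a7 (y+LAT1), known from macrophages and the gut, had 393, 372 and 379.8 in MSCs, COS1NR and MFH1NR, with ratios to MSCs of 0.722 and 0.573. Slc7a6 (y+LAT2) was near background throughout, at 46.2, 36.2 and 35.3, with ratios of 0.596 and 0.453, the latter at a log2 value of -0.39 without scaling. The light chain of Slc3a1, Slc7a9, was dim in MSCs at 12.1 and had 69.6 in COS1NR and 80.1 in MFH1NR, at least 2.95-fold and at least 2.64-fold above MSCs, although Slc3a1 itself was dim on all arrays, at 12.3, 12.2 and 22.9. After a normexp background correction these 2 bounds were under 2-fold, with log2 values of 0.48 and 0.21. Slc7a10 (Asc-1) was dim on every array by both of its probes, at 9.25, 19.4 and 10.48 by the brighter one.

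Of the cationic amino acid transporters, Slc7a2 and Slc7a3 differed between the 2 lines, in opposite directions. Slc7a2 (CAT2), which carries arginine and lysine, gave a signal of 60.9 in MSCs against 398 in COS1NR and 6.30 in MFH1NR, where it was dim. It was 4.97-fold higher in COS1NR than in MSCs, while MFH1NR was at least 3.42-fold below MSCs. The line MFH1NR was at least 17.0-fold below COS1NR. A second probe, with another RefSeq accession of the gene, had 28.7, 178 and 7.59, and gave 4.73-fold higher in COS1NR, with a log2 bound of only -0.69 for MFH1NR against MSCs and of -2.93 for MFH1NR against COS1NR.

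Slc7a3 (CAT3), a carrier of the same substrates, ran the other way between the lines. It had 975 in MSCs against 35.0 in COS1NR and 334 in MFH1NR, so it was 36.6-fold lower in COS1NR and 4.93-fold lower in MFH1NR than in MSCs, and 7.41-fold higher in MFH1NR than in COS1NR. The COS1NR value of its only probe was near the background limit of 29.4, which limits the precision of both ratios to COS1NR. Slc7a3l1, named as like Slc7a3, had 46.8, 159.9 and 164, and was 2.60-fold and 2.08-fold higher than in MSCs. Both of its ratios were under 2-fold after normexp, with log2 values of 0.59 and 0.31. Slc7a4 was above background in MFH1NR alone, at 66.7, where it was at least 2.20-fold above MSCs and at least 1.77-fold above COS1NR. After normexp its log2 ratio to MSCs was 0.16. Between the lines, Slc7a3l1 had a ratio of MFH1NR to COS1NR of 0.799.

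Slc7a6os was measured by several probes that did not give the same direction. The brightest had 874, 2303 and 1546, which is 2.01 times the MSC level in COS1NR and 1.05 times in MFH1NR. The next had 322, 116 and 167, and ratios of 0.276 and 0.307. Without this gene, 4 transporter genes were higher in COS1NR than in MSCs.

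Among the sodium-coupled neutral amino acid transporters of the Slc38 family, Slc38a4 (SNAT4), which is abundant in liver and imprinted in rodents, had 12538 in MSCs against 770.0 in COS1NR and 1236 in MFH1NR. It was 21.4-fold and 17.1-fold lower in the lines, which differed from each other by only 1.25-fold. Slc38a2 (SNAT2), a glutamine and alanine carrier that adapts to amino acid supply, had 19408, 11269 and 15698, with ratios to MSCs of 0.442 and 0.479. Its second probe gave 0.734 and 0.636, so the 2-fold difference depended on the probe. Slc38a1 (SNAT1), a glutamine carrier, had 74.6 in MSCs and 123 in MFH1NR, a ratio of 0.980, and was dim in COS1NR at 21.1, at least 3.33-fold below MSCs. It was at least 3.27-fold higher in MFH1NR than in COS1NR, which after normexp became a log2 ratio of 0.74.

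Slc38a6 and Slc38a9 were the Slc38 genes with their highest value in COS1NR. Slc38a6 had 162, 416 and 144, with ratios to MSCs of 1.95 and 0.525, and was 3.72-fold lower in MFH1NR than in COS1NR. Its other probes gave log2 ratios of MFH1NR to COS1NR of -1.53 and -1.15, against -1.89 by the brightest. Slc38a9, a lysosomal transporter that senses arginine for mTORC1, had 115, 241 and 153, with ratios to MSCs of 1.60 and 0.788, and was 2.03-fold lower in MFH1NR than in COS1NR. This last ratio was under 2-fold with median scaling, without scaling and after normexp, at log2 values of -0.96, -0.66 and -0.72. The lysosomal glutamine carrier Slc38a7 had ratios to MSCs of 0.771 and 0.753. In the proton-coupled Slc36 family, Slc36a4 had 152.5, 61.1 and 91.7 and was 3.28-fold and 2.81-fold lower in the lines, the latter under 2-fold without scaling, at a log2 value of -0.73. Slc36a1 (PAT1), a lysosomal carrier, was above background in MSCs alone, at 19.4, next to the background limit of 18.0.

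Slc43a1 and Slc43a3 were at least 2-fold lower in the lines than in MSCs, and the ratios of Slc43a2 depended on the probe. Slc43a1 (LAT3), a carrier of branched-chain amino acids, had 294 in MSCs, a dim 5.99 in COS1NR and 31.0 in MFH1NR, so COS1NR was at least 13.2-fold and MFH1NR 16.0-fold below MSCs. The MFH1NR value lay next to the background limit of 30.1, and no ratio of Slc43a1 can be given between the lines. Slc43a3, which is known to carry purine bases, had 96.0, a dim 6.44 in COS1NR and 59.5 in MFH1NR, which is at least 4.29-fold lower and 2.72-fold lower. The latter was under 2-fold without scaling and after normexp, at log2 values of -0.69 and -0.86. The brightest probe of Slc43a2 (LAT4) had 1697, 3822 and 1451, so COS1NR stood at 1.71 times the MSC level and MFH1NR at 0.507 times. The second probe of the same accession had 2843, 795 and 282, with ratios of 0.213 and 0.0588, and the third had 375, 334 and 196, with ratios of 0.678 and 0.310. The direction in COS1NR against MSCs thus could not be settled, whereas all 3 probes placed MFH1NR below COS1NR, with ratios of 0.295, 0.276 and 0.456.

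**Figure D3:**
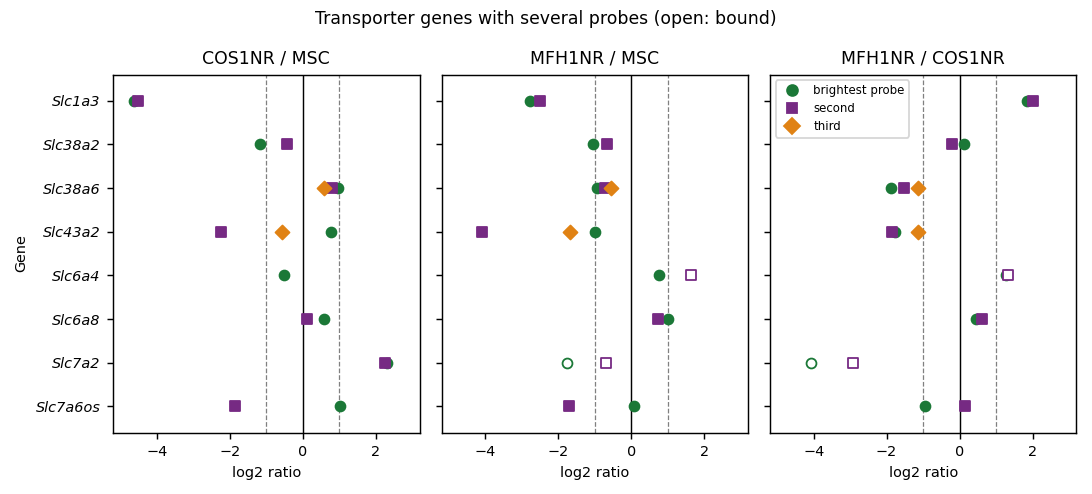
log2 ratios by probe for the transporter genes with several probes and a ratio, in each of the 3 comparisons. Green circles are the brightest probe of a gene, purple squares the second and orange diamonds the third, with open symbols for bounds and dashed lines at 2-fold. The probes of Slc1a3 lie together, and those of Slc38a6 lie on the same side of 0 within each comparison. Those of Slc43a2 and Slc7a6os lie on both sides of 0 for COS1NR against MSC.

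In the Slc6 family, Slc6a8, Slc6a6 and Slc6a9 were above background on all arrays, and several neurotransmitter carriers were dim. Slc6a8, which imports creatine, had 10123 in MSCs against 19685 in COS1NR and 34412 in MFH1NR, with ratios to MSCs of 1.48 and 2.01. Its second probe gave 1.08 and 1.66. The taurine transporter Slc6a6 had 299, 493 and 448, with ratios of 1.26 and 0.887, and Slc6a9 (GlyT1), a glycine transporter, had ratios of 0.653 and 0.992. None of these 3 genes was 2-fold lower in either line. The betaine transporter Slc6a12 had 216, 75.5 and 97.2 and was 3.77-fold and 3.76-fold lower in the lines.

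Slc6a15 (B0AT2), a neutral amino acid transporter of the brain, had 199 in MSCs and was dim in both lines, at 5.94 and 6.06, which is at least 8.88-fold and at least 11.1-fold lower. Slc6a17, another neutral amino acid transporter of neurons, had 62.4 in MSCs and was dim in both lines, at least 2.79-fold and at least 3.50-fold lower. Of 5 neuron markers with a probe, 2 were above background on each array. Tubb3, a tubulin of neurons, had 1116 in MSCs against 64.4 in COS1NR and 78.4 in MFH1NR, with log2 ratios of -4.51 and -4.59, while Snap25, a synaptic protein, had log2 ratios of 0.47 and 0.58, and Syt1, Stmn2 and Nefl were dim on all arrays. Their part in the values of Slc6a15 and Slc6a17 was not tested. Slc6a4, the serotonin transporter, had 35.7 in MSCs against 32.9 in COS1NR and 103 in MFH1NR, 2.43-fold higher in MFH1NR than in COS1NR, and its second probe, dim in MSCs and COS1NR, gave at least 2.52-fold. The ratio of MFH1NR to MSCs was 1.71 by the first probe and at least 3.13 by the second. After normexp the ratio of MFH1NR to COS1NR by the first probe fell short of 2-fold, with a log2 value of 0.48. Slc6a7, Slc6a11 and Slc6a20a lay between 21.7 and 39.9 where they were above background, and no ratio or bound of theirs reached 2-fold.

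Genes of amino acid supply beside the transporters were followed with lists. Of 26 genes of ATF4 targets and amino acid synthesis, all above background on all arrays, 2 were at least 2-fold higher and 7 lower in COS1NR than in MSCs, and 1 was higher and 9 lower in MFH1NR. The median log2 ratios were -0.50 and -0.38. For this list and those that follow, the shares over all genes were 20.6% higher and 20.0% lower in COS1NR and 19.3% higher and 21.6% lower in MFH1NR, with medians of 0.11 and 0.02. Phgdh, the first enzyme of serine synthesis, gave a signal of 47193 in MSCs against 2263 in COS1NR and 98374 in MFH1NR, with log2 ratios to MSCs of -4.78 and 0.30. MFH1NR was thus far above COS1NR for this gene, with a log2 ratio of 5.08. Cth, which makes cysteine from cystathionine, had log2 ratios of -2.98 and -1.06 to MSCs. Ddit4, an inhibitor of mTORC1, had -2.99 and -5.89, Nupr1, a stress-induced chromatin protein, had -3.29 and -4.09, and Stc2, a secreted glycoprotein, had -3.75 and -1.78. Vegfa, the angiogenic factor, had -2.68 and -3.74. These 6 genes were named for their distance from MSCs and do not stand for the list. The 2 genes higher in COS1NR and the 1 higher in MFH1NR are not among them.

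Of 15 measured genes of glutamine and glutathione enzymes, which use the amino acids that Slc1a5 and Slc7a11 carry, 3 were at least 2-fold higher and 6 lower in COS1NR than in MSCs, and 4 were higher and 4 lower in MFH1NR, with median log2 ratios of -0.28 and -0.10. The genes of the gamma-glutamyl transferase family differed between the lines. Ggt1 had 917 in MSCs against 167 in COS1NR and 2473 in MFH1NR, with log2 ratios to MSCs of -2.85 and 0.68, and Ggt5 had -1.73 and 1.85. Ggt7 had -3.11 and -0.65. In MFH1NR against COS1NR, the log2 ratios of these 3 genes were 3.53, 3.58 and 2.46, so all were higher in MFH1NR. Gsr, which reduces oxidized glutathione, had 1.58 and 1.17 relative to MSCs, and Anpep, a surface aminopeptidase, had -3.83 and -2.68.

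Of 21 genes of mTORC1 and its amino acid sensors, 3 were at least 2-fold higher and 1 lower in COS1NR than in MSCs, and 2 were higher and 1 lower in MFH1NR, with median log2 ratios of 0.22 and -0.07. Rragd, a GTPase that recruits mTORC1 to lysosomes, had 37.4 in MSCs against 238 in COS1NR and 2516 in MFH1NR, with log2 ratios of 2.28 and 5.32 to MSCs. Tfeb, a transcription factor of lysosomal genes, had 89.8, 640.4 and 621, with 2.44 and 2.03. These genes had the highest ratios of the list in MFH1NR. Akt1s1 had -0.41 and -2.08, Flcn -1.50 and -0.89, Lamtor5 0.97 and -0.74, and Mlst8 -0.60 and -0.81, all of which encode mTORC1 subunits or regulators.

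**Figure D4:**
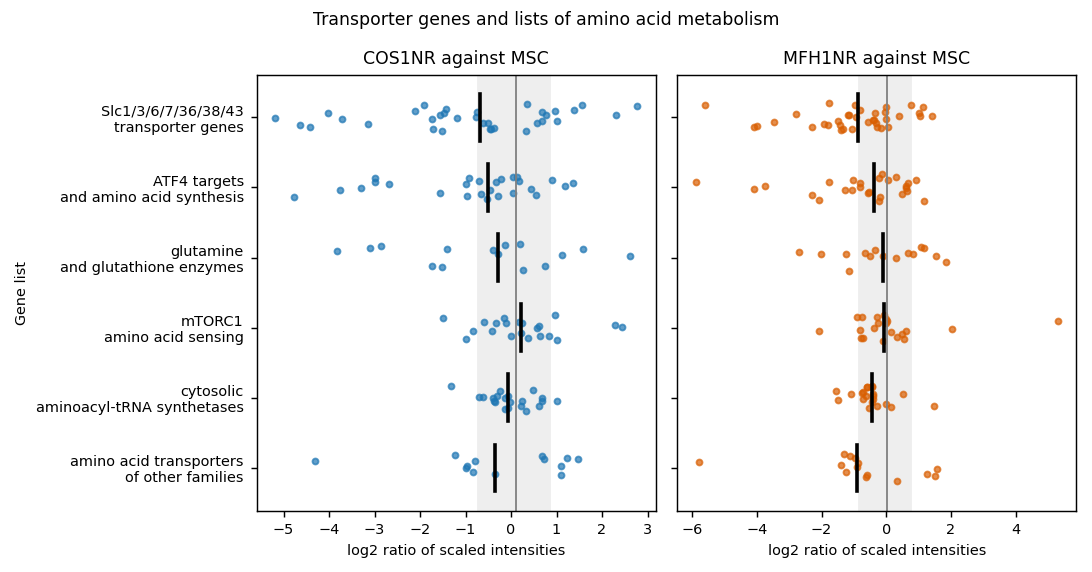
log2 ratios of COS1NR (left) and MFH1NR (right) to MSC for the transporter genes and 5 lists of amino acid metabolism, with 1 point per gene with a ratio and spread in height for display only. Black bars are the medians of the lists, the grey line is the median of all named genes and the grey band spans their middle 50%. The bar of the transporter genes, at -0.68 and -0.87, lies to the left of the grey line in both panels. The bars of the other lists also lie to its left, except that of the mTORC1 list in COS1NR, so this position is not particular to the transporter genes.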

How the data were processed

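RNA of MSCs, COS1NR and MFH1NR was measured on 1 one-colour Agilent whole rat genome array each. Per the file headers, the authors made the intensities with Agilent Feature Extraction 10.5.1.1 (the submitters' processing notes name 9.1), which subtracted background, detrended each array and set a surrogate near background, without scaling between arrays. The deposited value table of the series held the same intensity for every spot that is not a control, within a relative tolerance of 1e-06. Flags and control codes came from the same files.

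Spots flagged as outliers (187 to 217 per array) were left out, spots of a probe were averaged in log2, and the 75th percentile over spots that are not controls was subtracted. Of 40816 probes kept, 16745 were named through RefSeq accessions with the GRCr8 gene table, and the probe of highest mean log2 intensity stood for each of 13301 genes. A dim side entered a ratio at its own intensity or, if higher, at the lowest intensity above background on its array (18.0, 29.4 and 30.1 in MSCs, COS1NR and MFH1NR). Ratios of at least 2-fold were counted, and no test was made with 1 array per group. The number of arrays limits the precision.

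Members, lists, scaling and thresholds were chosen with earlier results of these data known. Every member above background on at least 1 array was named. Intensities were given in full for members 4-fold apart in any comparison, for Slc3a1, Slc3a2 and their partners, and for probes in disagreement. Up to 6 genes per list, those farthest from MSCs among genes above background on all arrays, were named, and some listed genes are not reported here. Alternatives were no, median and quantile scaling, normexp with an offset of 50 on median spot intensities, the value table, other filters and bounds, a 3-fold threshold, and other probes of a gene. Leaving out Slc7a6os was added after the data were seen. Steps were tested on simulated data. Python 3.11.15, numpy 2.4.6, pandas 2.3.3, matplotlib 3.10.9, R 4.3.3 and limma 3.58.1 were used.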

Additional observations from a re-analysis of the deposited data

Results flagged for a closer look

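Among the 55 genes, Slc7a2 alone was at least 2-fold apart from MSCs in opposite directions in the 2 lines, with a log2 ratio of 2.31 in COS1NR and a bound of -1.77 in MFH1NR. By its second probe the values were 2.24 and a bound of -0.69, which is under 2-fold. The difference was not tested, since each line was measured on 1 array. The pattern was not limited to these families. Slc16a10, of the transporters of other families and named here after its values were seen, had 1.24 in COS1NR and a bound of -1.25 in MFH1NR.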

How the results depend on the processing

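With 1 array per cell type no replicate could be left out, and no paired analysis was possible because no 2 groups share 2 replicate numbers. The precision of dim probes is limited by their distance from background. The median log2 ratio of the transporter genes stayed below 0 in both comparisons with MSCs under every alternative tried. It moved to -0.30 in COS1NR and -0.34 in MFH1NR with all 55 genes and no filter on dim probes, and to -0.29 and -0.23 without scaling. For MFH1NR against COS1NR it moved to -0.16 with no filter and to 0.36 without scaling.

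In COS1NR against MSCs, the number of genes at least 2-fold higher was 5 and became 9 with no filter, 9 without scaling, 2 after normexp, 2 at a 3-fold threshold and 2 among probes above background on all 3 arrays. The number lower was 15 and became 9 among the latter. In MFH1NR against MSCs, the number higher was 4 and became 7 with no filter, 1 after normexp, 2 among probes above background on all 3 arrays and 0 at 3-fold, and the number lower was 16 and became 9 without scaling, 9 at 3-fold and 10 among probes above background on all 3 arrays. In MFH1NR against COS1NR, the number higher was 4 and became 8 with the deposited intensity in place of the bound, 9 with no filter and 2 after normexp, and the number lower was 6 and became 3 among probes above background on all 3 arrays. The other 73 counts and medians stayed within 1.5 times or within the spread between probes of a gene. They include those from the value table of the series, which holds the same intensities and so could not differ. The added removal of Slc7a6os left 4 genes higher in COS1NR than in MSCs. The shares over all genes in the Results do not apply to the counts under other scaling, filters or thresholds.

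Of 50 ratios of single genes of at least 2-fold, 13 were under 2-fold after normexp, 9 without scaling, 4 with median scaling and 3 after quantile normalization. Among them were the lower values in MFH1NR of Slc1a4, Slc1a5, Slc7a5, Slc7a6, Slc36a4, Slc38a2 and Slc43a3 without scaling, with log2 ratios of -0.43, -0.58, -0.64, -0.39, -0.73, -0.31 and -0.69. The ratio of Slc7a6os in COS1NR turned to -0.43 with the mean of all probes and to -1.86 by its second probe.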

Other observations

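The cytosolic aminoacyl-tRNA synthetases, which charge transfer RNAs with amino acids, were followed as another list. Of 21 genes, all above background on all arrays, 1 was at least 2-fold higher and 1 lower in COS1NR, and 1 was higher and 3 lower in MFH1NR, with median log2 ratios of -0.06 and -0.44. Of all genes, 20.6% were higher and 20.0% lower in COS1NR, and 19.3% and 21.6% in MFH1NR, with medians of 0.11 and 0.02. Farsb, a subunit of the phenylalanine enzyme, had log2 ratios of 1.01 and 0.52 to MSCs. Nars1, the asparagine enzyme, had 0.24 and 1.46, and Qars1, the glutamine enzyme, had -1.31 and -1.49. Sars1, Lars1 and Eprs1 had -0.35, -0.24 and -0.70 in COS1NR and -1.56, -1.08 and -0.61 in MFH1NR.

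Of the amino acid transporters of other families, 4 of 13 measured were at least 2-fold higher and 2 lower in COS1NR than in MSCs, and 3 of 14 were higher and 5 lower in MFH1NR. Their median log2 ratios were -0.36 and -0.90, against -0.68 and -0.87 for the transporter genes of the main part. The mitochondrial ornithine carrier Slc25a15 had 243, 881 and 1163 in MSCs, COS1NR and MFH1NR, which is a log2 ratio of 1.46 for COS1NR and 1.50 for MFH1NR. Slc32a1, the vesicular transporter of GABA and glycine, had 215, 607 and 875, with a log2 ratio of 1.27 in MFH1NR. Slc25a38, which carries glycine into mitochondria, had -0.84 and -1.30, Sfxn3, a mitochondrial carrier, had -0.96 and -1.41, Slc25a29, a mitochondrial carrier of basic amino acids, had -0.98 and -0.97, and Slc15a4, a lysosomal carrier of histidine and peptides, had -1.22 and -0.92. Slc15a3, a lysosomal relative of Slc15a4 known from macrophages and named here after its values were seen, had 976 in MSCs, 64.9 in COS1NR and a dim 6.18 in MFH1NR, with log2 ratios of -4.30 and, as a bound, -5.78.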
